A study of Mus musculus with 2 samples.

Results

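Translation initiation and elongation factors are the proteins, outside the ribosome itself, that start and drive protein synthesis. Their transcripts were measured in thigh skeletal muscle by poly(A) RNA sequencing. The members were all genes of the deposited table whose symbol starts with Eif and a digit or with Eef, leaving out Eif4ebp1 and Eif2ak3, at loci with a single symbol. By this rule there were 61 members among 10543 genes with a single symbol. They comprised 18 genes with an Eif2 name, 13 eIF3 subunits, 13 genes with an Eif4 name, 8 with an Eef name and 9 other initiation factors.

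The study compared 2 libraries, both from B6C3F1 hybrid mice aged 26 months. The calorie restriction library (CR) came from mice that ate about 40% fewer calories for 25 months, on food enriched to keep their intake of protein and micronutrients, relative to body weight, close to that of controls. The control library came from mice on the control diet. The sources used here do not say how many mice each library holds. With 1 library per group no difference has a replicate check, no test was possible, and no p-value is given.

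Initiation in eukaryotes begins when eIF2 brings the initiator tRNA to the small ribosomal subunit. eIF3 is a scaffold on that subunit that helps bring in the mRNA, and the eIF4 proteins bind the cap and unwind the leader. Elongation then runs on eEF1A, which delivers each aminoacyl-tRNA, and eEF2, which moves the ribosome along by a codon. Skeletal muscle is a large site of protein synthesis, and feeding controls its rate there in part through phosphorylation of eIF2, of the eIF4E binding proteins and of eEF2, none of which a transcript level measures.

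Values are FPKM, the number of sequenced fragments of a transcript set against its length and the library's size. They are per length, so levels can be set side by side between genes. Ratios are log2 of CR FPKM + 1 over control FPKM + 1, and a fold is that ratio on the linear scale. A gene was counted as different when its fold was at least 2 in either direction. The depth behind each value is unknown, and a value of 0 in this table can be a failed estimate. In a bulk tissue sample, fewer cells of a type and less RNA per cell cannot be told apart.

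The labelled tissue was checked against marker genes. All 7 fast fibre markers were measured, and 1 was at least 2-fold higher in CR. Their summed level was 967185 FPKM in the CR library and 596005 FPKM in the control library. Other cell types and fibre types differed between the libraries. All 7 slow fibre markers were at least 2-fold higher in CR, with sums of 123295 FPKM in CR and 14331 FPKM in control. Of 7 white adipocyte markers 6 were at least 2-fold higher, with sums of 18457.5 FPKM in CR and 3922 FPKM in control. All 3 measured smooth muscle markers were also at least 2-fold higher in CR, with sums of 1734 FPKM in CR and 719 FPKM in control. No marker of these 4 lists was at 0 in either library. Past 2-fold on the higher side were 2 of 7 tendon and fibroblast markers, 1 of 5 endothelial, 1 of 3 red cell, 1 of 5 Schwann cell and 0 of 2 leukocyte markers, and on the lower side 1 tendon and 1 Schwann cell marker. Among the Schwann cell markers Sox10 was listed at 0 in CR and S100b at 0 in control. Of 6 leukocyte symbols searched, 2 were measured. The part of these marker differences in the values that follow was not tested.

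Most translation factors stood at similar levels in both libraries. Of the 61 members, 57 lay within 2-fold, 1 was at least 2-fold higher in CR and 3 were at least 2-fold lower. For comparison, 10533 genes of the table averaged 1 FPKM or more. Of these, 8.01% passed 2-fold on the higher side in CR, 10.7% on the lower side and 18.7% in either direction. The members' share past 2-fold was 6.56%. Without the 4 Argonaute genes, which are not initiation factors, it was 1 of 57 (1.75%). The members were more abundant than most genes, with a median of 546 FPKM (mean of the libraries) against 224 FPKM over all genes. Among 5473 genes of similar abundance the share past 2-fold was 8.02%. Similar abundance means a mean between 196 and 2163 FPKM, the 10th and 90th percentiles of the members. The members' shares cover all 61 and are not limited to that range. Eif2c4 and Eif2c3, both counted past 2-fold, average below it, at 82.7 and 11.3 FPKM. Within 1.5-fold lay 49 members (80.3%), against 76.8% of the genes of similar abundance.

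All 4 members past 2-fold carry an Eif2 name, and 3 of them are not initiation factors but Argonautes. Their share of the 18 Eif2 names was 22.2%, near the 18.7% of all genes, and 1 of 14 (7.14%) without the Argonautes. The eIF3, eIF4, eEF and other eIF groups had none. These groups hold 8 to 13 genes each, and 8.02% of genes of similar abundance passed 2-fold. Counts this small do not set the groups apart. The median log2 ratio was -0.01 for the Eif2 names, -0.24 for eIF3, -0.11 for eIF4, 0.14 for eEF and 0.11 for the other initiation factors, beside -0.03 for all genes.

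**Figure D1:**
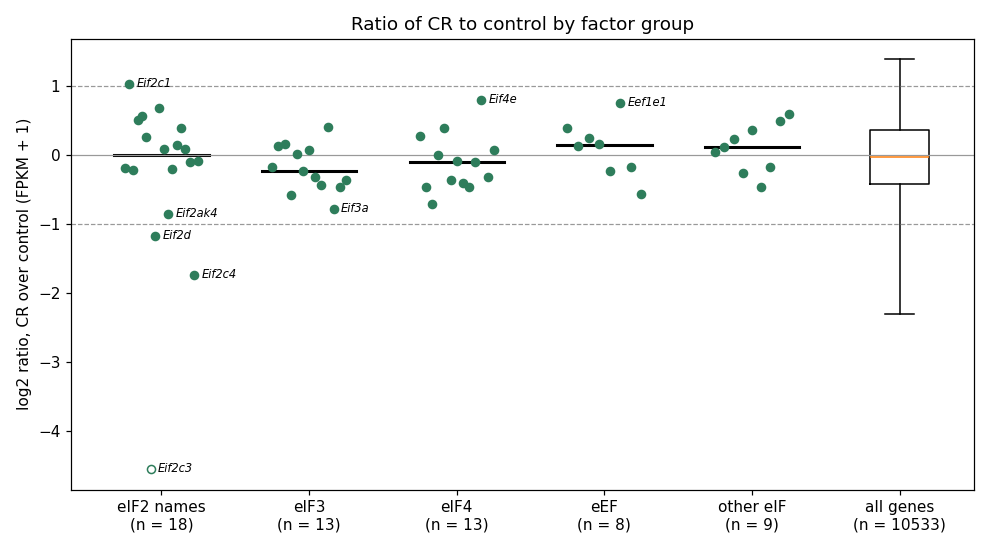
Each point is a translation factor, by group, with its log2 ratio of CR over control on the FPKM + 1 scale; thick lines are group medians and dashed lines mark 2-fold. The box on the right gives the quartiles of all 10533 genes with whiskers at the 5th and 95th percentiles. Eif2c1, Eif2d and Eif2c4 lie past the dashed lines, and Eif2c3 (open circle) was listed at 0 in CR and has no fold.

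The order of levels was similar in both libraries. The most abundant member in the CR library was Eif1, at 9193 FPKM in CR and 7809.9 FPKM in control, and the most abundant in the control library was Eef2. Eif4g2 came after these genes in both. The 5 most abundant members made up 39.3% of the members' summed FPKM in CR and 40.4% in control. Spearman's rho between the libraries was 0.94 across the 61 members, a description over genes that share the same libraries. Of the 61 members, 22 ranked in the top 10% of genes by mean FPKM, and 8 ranked below the median gene.

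**Figure D2:**
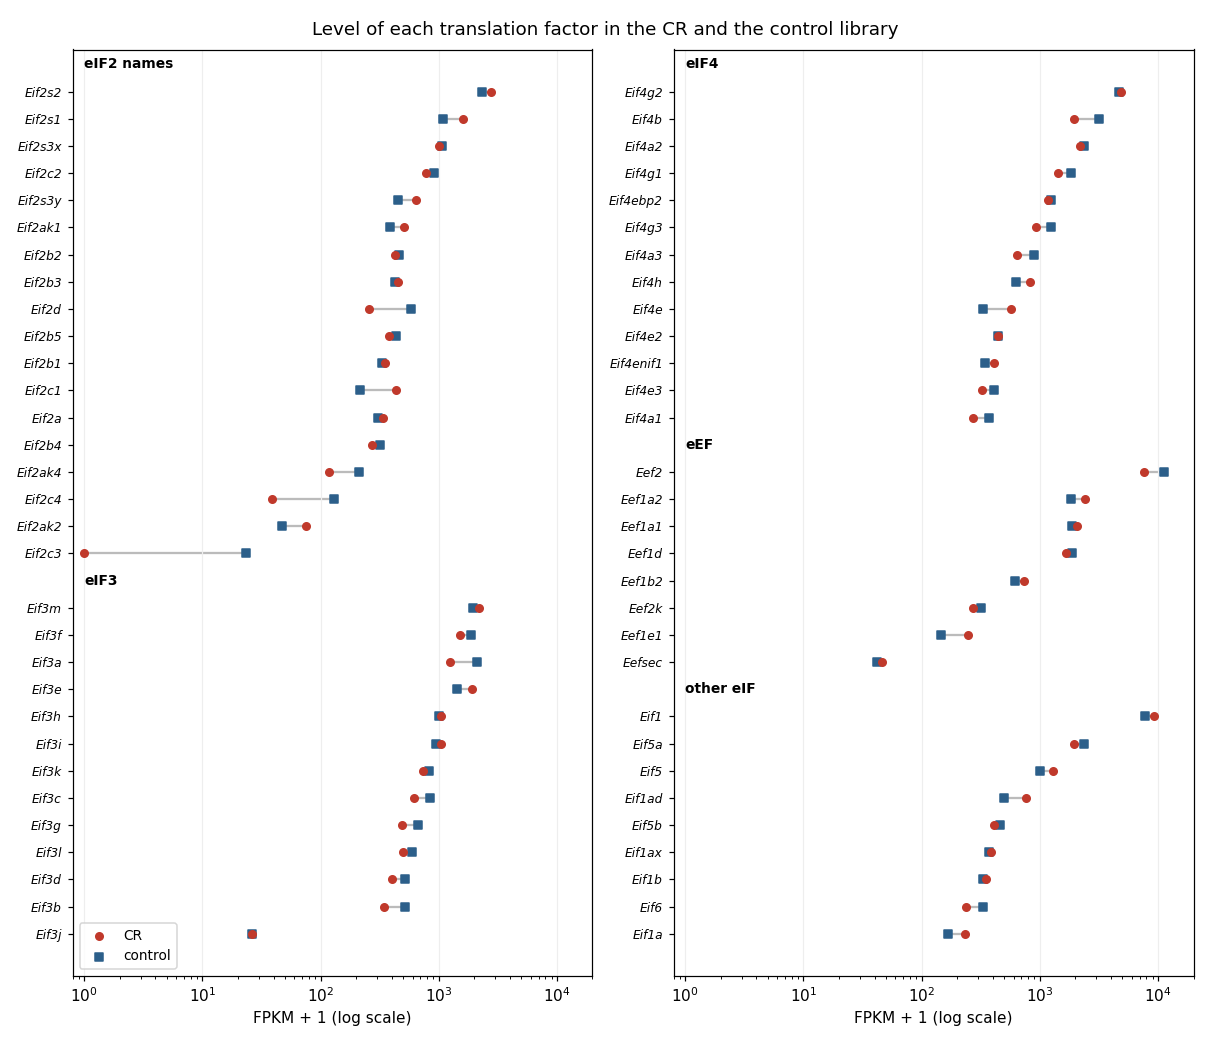
FPKM + 1 of each of the 61 members on a log axis, in the CR library (red circles) and the control library (blue squares), ordered by mean level within each group. For most members the symbols lie close together, while Eif2c4, Eif2d and Eif2c1 are drawn apart and Eif2c3 sits at the left edge in CR.

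The eIF2 complex itself was somewhat higher in CR for 3 of 4 subunit genes, beside 47.9% of all genes. All 4 lay within 2-fold. Eif2s1, the alpha subunit whose phosphorylation slows initiation, had 1619 FPKM in CR and 1092 FPKM in control, a log2 ratio of 0.57. Eif2s2, the beta subunit, had 2787 FPKM in CR and 2332 FPKM in control (0.26). The gamma subunit is encoded on both sex chromosomes in mice. Its X-linked gene Eif2s3x stood at 998 FPKM in CR and 1064 FPKM in control (-0.09). Its Y-linked gene Eif2s3y stood at 640.3 FPKM in CR and 449 FPKM in control (0.51), so transcript of a Y-linked gene was listed in both libraries. The gamma genes are close paralogs and can share reads, so the split between them is uncertain.

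The guanine nucleotide exchange factor eIF2B, which recharges eIF2 with GTP, had genes that stood close together. Its 5 genes, Eif2b1 to Eif2b5, had log2 ratios from -0.22 (Eif2b4) to 0.08 (Eif2b1). Their levels ran from 270.3 to 448 FPKM in CR and from 316 to 456 FPKM in control, a 1.499-fold range of mean levels. None of the 5 was past 1.5-fold.

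Of the 3 eIF2 kinase genes kept by the rule, 2 were higher in CR, beside 47.9% of all genes, and 1 was lower. All were within 2-fold. Eif2ak4 encodes GCN2, the kinase that senses uncharged tRNA when amino acids are short. It had 117 FPKM in CR and 212 FPKM in control, a log2 ratio of -0.85, the largest inside the 2-fold limit. Eif2ak1, the heme-regulated kinase, had 502 FPKM in CR and 384 FPKM in control (0.39). Eif2ak2, the kinase PKR that binds double-stranded RNA, had 74.5 FPKM in CR and 46.3 FPKM in control (0.68). The 4th kinase, Eif2ak3 or PERK of the endoplasmic reticulum, is no member by the rule and stood at 72.0 FPKM in CR and 27.2 FPKM in control, past 2-fold with a log2 ratio of 1.37.

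Eif2d was the initiation gene furthest apart. It encodes eIF2D, a protein apart from the eIF2 complex that can place initiator tRNA without GTP and takes part in recycling and reinitiation. The gene (mm9 chromosome 1, 133049778 to 133070048, plus strand) had 257 FPKM in CR and 580.0 FPKM in control. Its log2 ratio was -1.17, or 2.25-fold lower in CR. Eif2a, another protein that can deliver initiator tRNA, stood at 338 FPKM in CR and 307 FPKM in control (0.14).

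The Argonaute genes carry Eif2c names in this table and are now called Ago1 to Ago4. Argonautes bind small RNAs and carry out microRNA silencing, and they are not part of the eIF2 complex. Eif2c1 had 434 FPKM in CR and 213 FPKM in control, 2.03-fold higher in CR. Eif2c4 had 37.6 FPKM in CR and 128 FPKM in control, 3.34-fold lower in CR. Eif2c3 was listed at 0 FPKM in CR and at 22.6 FPKM in control, and has no fold. Eif2c2, the Argonaute that can cut its target, was the most abundant at 782 FPKM in CR and 903 FPKM in control (-0.21). Summed over the 4 genes, Argonaute transcript stood at 1253 FPKM in CR and 1267 FPKM in control, a ratio of 0.99, while single genes differed in both directions.

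Eif2c3, Eif2c1 and Eif2c4 lie in a row on the minus strand of chromosome 4 (mm9, 126017922 to 126106786, 126112099 to 126145665 and 126166787 to 126210702). The gaps between them are 5312 bp and 21121 bp. The neighbours thus had the highest ratio among all members and the lowest among those above 0 in both libraries. Argonaute genes are paralogs that can share reads, so these values are uncertain. When the CR library was scaled to the control sum, leaving aside the 50 most abundant genes, Eif2c1 stood at a log2 ratio of 0.95, inside 2-fold. The bases before their starts are shown because these neighbours share a region and differ in level. They come from RefSeq on GRCm38.p6, a later build than that of the table, and cover the 90 bases before the first listed start on the gene's strand. Eif2c1 is at chr4:126468632-126468721 (minus strand), Eif2c3 at chr4:126429543-126429632 (minus strand) and Eif2c4 at chr4:126533459-126533548 (minus strand). Capitals mark a CCAAT box in Eif2c1 and an ETS motif in Eif2c3, and Eif2c4 holds none of the motifs searched.
Eif2c1: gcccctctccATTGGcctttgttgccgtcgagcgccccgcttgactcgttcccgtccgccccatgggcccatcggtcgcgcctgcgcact
Eif2c3: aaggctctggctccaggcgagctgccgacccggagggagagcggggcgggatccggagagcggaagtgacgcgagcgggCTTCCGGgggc
Eif2c4: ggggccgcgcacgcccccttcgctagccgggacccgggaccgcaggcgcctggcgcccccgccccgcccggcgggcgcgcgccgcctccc

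The motifs searched in the 300-base promoter windows (250 bases before the start and 50 after) were the ETS motif CCGGAAG, the E-box CACGTG and the CCAAT box CCAAT on either strand. TATAAA was searched on the gene's strand in the 50 bases before the start. Windows were found for 51 of 61 members, and those not matched were Eef1d, Eif1a, Eif2b3, Eif2c2, Eif3e, Eif3h, Eif3i, Eif4e3, Eif4g2 and Eif6. The ETS motif, bound by ETS family factors such as GABPA, was in 15 of 51 windows (29.4%). It was in 9.12% of 27025 RefSeq windows and in 18.3% of the 7522 windows of genes in the table. The E-box, bound by MYC and MAX among others, was in 9 member windows (17.6%), against 7.24% of all windows and 10.97% of those of genes in the table. CCAAT boxes were in 25.5% of member windows and 37.9% of all. These are matches of letters and not measured binding.

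The ratios were set beside these motifs as a description. Of the 9 members with the E-box, 7 were below 0 on the log2 scale and 2 above, with a median of -0.32, while the 42 members without it had 21 below and 21 above, with a median of 0.00. Members with the ETS motif had a median of -0.09 (6 above 0 and 9 below), and those without it a median of -0.10. A run of at least 8 bases made only of C and T, starting with C on the gene's strand within 50 bases of the start, was also counted, since such a tract at the first base of an mRNA ties translation of many elongation factor mRNAs to mTOR. It was in 17 of 51 member windows (33.3%) against 28.7% of all windows. Of these 17 members 5 were above 0 and 12 below, with a median of -0.19, beside 52.1% of all genes below 0. That share covers genes with and without the run. The direction of other genes holding the run or the E-box was not counted. Members without the run had a median of 0.02. The run was in 7 of the 10 eIF3 windows matched (1 above and 6 below) and in 6 of the 16 with an Eif2 name (1 above and 5 below). In the eIF4 group 2 of 11 held it (1 above and 1 below). Only 2 of the 7 elongation factor windows matched held it (Eef1a1 and Eef1a2, both above 0), and Eef2 and Eef1b2 lacked it. The run can overlap the reverse ETS letters by a few bases. RefSeq starts are not exact to the base, so whether a tract begins the mRNA was not tested.

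eIF3, the scaffold of the initiation complex, had lower ratios in 8 of 13 subunit genes, and none reached 2-fold. Over all genes 52.1% had a ratio below 0. The lowest was Eif3a, the largest subunit, with 1237 FPKM in CR and 2122 FPKM in control (-0.78). Eif3b, which forms a module with Eif3g and Eif3i, had 347 FPKM in CR and 522 FPKM in control (-0.59). Eif3g, the RNA-binding partner of that module, had 485 FPKM in CR and 668 FPKM in control (-0.46). Eif3c, the other large scaffold subunit, had 620 FPKM in CR and 840.0 FPKM in control (-0.44). Eif3d, which can bind the cap of some mRNAs, had 399 FPKM in CR and 513 FPKM in control (-0.36).

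The remaining lower subunits were nearer to 0. Eif3f, known in muscle as a target of the ubiquitin ligase MAFbx, had 1511 FPKM in CR and 1891 FPKM in control (-0.32). Eif3l had 500.5 FPKM in CR and 591 FPKM in control (-0.24), and Eif3k had 736 FPKM in CR and 835 FPKM in control (-0.18).

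Higher in CR were Eif3e, with 1903 FPKM in CR and 1436 FPKM in control (0.41), and Eif3m, with 2182 FPKM in CR and 1966 FPKM in control (0.15). Eif3i had 1045 FPKM in CR and 955 FPKM in control (0.13), and Eif3h had 1050.1 FPKM in CR and 1005 FPKM in control (0.06). Eif3j, the loosely bound subunit, was listed at 25.4 FPKM in CR and 25.2 FPKM in control. Eif3j has a near-identical second copy in the mouse genome, so its low level is uncertain. Without it, mean levels within eIF3 ran over a 4.77-fold range, although the subunits act in a single complex. Summed over the 13 genes eIF3 transcript stood at 12041 FPKM in CR and 13367 FPKM in control, a ratio of 0.90.

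The ETS motif was in 5 of the 10 eIF3 windows matched (Eif3c, Eif3d, Eif3g, Eif3l and Eif3m) and the E-box in 3 (Eif3a, Eif3f and Eif3k). The sequences are shown because the letters recur in genes of a single complex. They cover the 90 bases before the first listed start (RefSeq, GRCm38.p6, 5′ to 3′ on the gene's strand), with the ETS motif in capitals in Eif3c, Eif3g, Eif3l and Eif3m and the E-box in capitals in Eif3k. Eif3c lies at chr7:126566367-126566456 (minus strand), Eif3g at chr9:20898591-20898680 (minus strand) and Eif3l at chr15:79075133-79075222 (plus strand). Eif3m lies at chr2:105017028-105017117 (minus strand) and Eif3k at chr7:28981889-28981978 (minus strand). Eif3d and Eif3f also hold a motif within these 90 bases and are not shown. The ETS motif stands on both strands among these genes. Of the 5 eIF3 genes with it, 1 (Eif3m) was above 0 and 4 were below, and the 3 with the E-box were below. Of all 13 eIF3 genes 8 were below 0. Eif3e, Eif3h and Eif3i, which had no window, were all above 0.
Eif3c: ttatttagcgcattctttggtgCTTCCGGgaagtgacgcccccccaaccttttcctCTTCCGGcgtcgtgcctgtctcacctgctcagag
Eif3g: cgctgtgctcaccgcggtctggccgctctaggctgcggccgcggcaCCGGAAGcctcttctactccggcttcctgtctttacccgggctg
Eif3l: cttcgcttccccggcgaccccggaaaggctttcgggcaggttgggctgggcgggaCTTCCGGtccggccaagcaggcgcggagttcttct
Eif3m: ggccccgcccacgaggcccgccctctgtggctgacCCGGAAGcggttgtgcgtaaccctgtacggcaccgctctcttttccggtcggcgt
Eif3k: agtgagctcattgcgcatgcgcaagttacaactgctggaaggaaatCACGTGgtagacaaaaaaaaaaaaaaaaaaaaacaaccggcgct

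**Figure D3:**
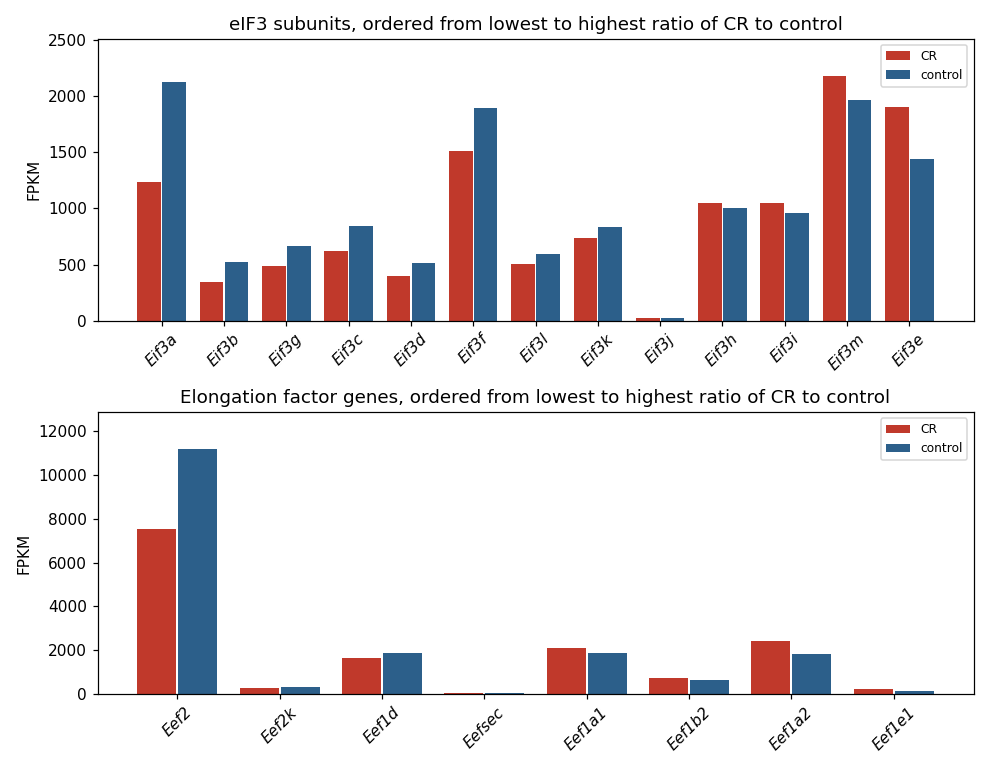
FPKM of the eIF3 subunit genes (upper panel) and of the elongation factor genes (lower panel), with CR in red and control in blue, 1 library each. Eif3a is lowest and Eif3e highest by ratio in the upper panel, and Eef2 is the most abundant gene and the one lowest by ratio in the lower panel.

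In the eIF4 group 4 of 13 genes were higher in CR and 9 were lower, all within 2-fold. Of all genes 47.9% had a ratio above 0 and 52.1% below. Eif4e, which binds the mRNA cap and is held to be limiting for initiation, had 573 FPKM in CR and 328 FPKM in control. Its log2 ratio of 0.80 was the nearest to 2-fold on the higher side. Eif4e2, a cap-binding protein that represses translation, had 442 FPKM in CR and 444 FPKM in control. Eif4e3, a further relative, had 324 FPKM in CR and 407 FPKM in control (-0.33).

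The scaffolds that bridge eIF4E and eIF3 were lower in CR. Eif4g1 had 1433 FPKM in CR and 1847 FPKM in control (-0.37), and Eif4g3 had 932 FPKM in CR and 1239 FPKM in control (-0.41). Eif4g2, a relative that lacks the eIF4E-binding part and serves cap-independent initiation, was the most abundant eIF4 gene, with 4884 FPKM in CR and 4648 FPKM in control (0.07).

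Of the helicase and its helpers 4 of 5 genes were lower, beside 52.1% of all genes. Eif4b, which stimulates the helicase, had 1943 FPKM in CR and 3180 FPKM in control (-0.71), the lowest ratio of the group. Eif4h, with a similar task, had 824 FPKM in CR and 630 FPKM in control (0.39). The helicase genes were Eif4a1, with 270.0 FPKM in CR and 373 FPKM in control (-0.46), and Eif4a2, with 2191 FPKM in CR and 2366 FPKM in control (-0.11). Eif4a2 exceeded Eif4a1 in both libraries, 8.12-fold in CR and 6.34-fold in control. Eif4a3, which belongs to the exon junction complex, had 643 FPKM in CR and 886 FPKM in control (-0.46). The 2 eIF4E binders counted here are proteins that hold eIF4E from the scaffold. Eif4ebp2 had 1165 FPKM in CR and 1240.1 FPKM in control (-0.09), and Eif4enif1, which carries eIF4E into the nucleus, had 412 FPKM in CR and 341 FPKM in control (0.27). Eif4ebp1, left out by the rule, had 439 FPKM in CR and 645 FPKM in control (-0.56).

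Elongation factors had 5 of 8 genes higher in CR, beside 47.9% of all genes, while the most abundant, Eef2, was lower. Without Eef2k, Eefsec and Eef1e1, 3 of 5 were higher. Eef2 (mm9 chromosome 10, 80632263 to 80645255, plus strand) had 7555 FPKM in CR and 11201 FPKM in control, a log2 ratio of -0.57 and 1.48-fold lower in CR. It made up 11.05% of all the members' FPKM in CR and 15.5% in control. Summed over all 61 members the level was 68377 FPKM in CR and 72244 FPKM in control, a ratio of 0.95, and without Eef2 the ratio was 0.996. Eef2k, the kinase that phosphorylates and stops eEF2, had 271 FPKM in CR and 317 FPKM in control (-0.23).

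The start of Eef2 and that of Eif4g1 are shown as examples of an E-box close to the first listed start, and were chosen after their ratios were seen. Both genes were lower in CR, while Eif1b (0.11) and Eif4h (0.39) also hold an E-box and were higher. Eef2 lies at chr10:81176541-81176630 (plus strand) and Eif4g1 at chr16:20672637-20672726 (plus strand) on GRCm38.p6, from RefSeq. Capitals mark the E-box in both, and in Eef2 also TATAAA, which no other member window held at this place and which 2.88% of all windows held.
Eef2: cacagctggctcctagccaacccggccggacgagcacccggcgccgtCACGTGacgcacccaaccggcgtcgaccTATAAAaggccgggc
Eif4g1: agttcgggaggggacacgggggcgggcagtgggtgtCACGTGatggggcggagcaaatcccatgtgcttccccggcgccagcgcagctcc

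Eef1a1 and Eef1a2 encode the factor that delivers aminoacyl-tRNA, and Eef1a2 is the form that adult muscle fibres use. Eef1a2 had 2422 FPKM in CR and 1849 FPKM in control (0.39), and Eef1a1 had 2086 FPKM in CR and 1868 FPKM in control (0.16). The ratio of Eef1a2 to Eef1a1 was 1.16 in CR and 0.99 in control. These values cover the named loci alone. On the opposite strand of Eef1a2 (mm9 chromosome 2, 180875885 to 180892094, minus strand) lie 3 unnamed loci with higher values. They had 20646 FPKM in CR and 19908 FPKM in control, 8757 FPKM in CR and 11736 FPKM in control, and 2955 FPKM in CR and 3714 FPKM in control. An unnamed locus over Eef1a1 had 5592 FPKM in CR and 2321 FPKM in control. The protocol describes no step that keeps strand, so reads of these loci and of the named genes cannot be told apart, and the level and ratio of both Eef1a genes are uncertain.

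The exchange factors of eEF1A were on both sides of 0. Eef1b2 had 738 FPKM in CR and 619 FPKM in control (0.25), and Eef1d had 1664 FPKM in CR and 1887 FPKM in control (-0.18). Eef1e1, which sits in the multi-synthetase complex, had the highest ratio of the group, with 246 FPKM in CR and 145 FPKM in control (0.76). Eefsec, the factor that delivers selenocysteine, was the least abundant, with 44.8 FPKM in CR and 41.1 FPKM in control (0.12). Eef1g was not counted, since its locus is merged with Tut1 in the table. The merged locus had 2162 FPKM in CR and 1957 FPKM in control. Eif4ebp3 was likewise merged with Ankhd1.

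Factors of start codon choice and subunit joining had 6 of 7 genes higher in CR, beside 47.9% of all genes with a ratio above 0. Eif1, which guards start codon selection, stood at a log2 ratio of 0.24, and its paralog Eif1b had 353 FPKM in CR and 327 FPKM in control (0.11). Eif1a had 234 FPKM in CR and 165 FPKM in control (0.50), and its X-linked paralog Eif1ax had 384 FPKM in CR and 374 FPKM in control (0.04). These promote scanning along the mRNA. Eif1ad, a protein with an eIF1A-like domain, had 758 FPKM in CR and 501 FPKM in control (0.60), the highest of the group. Eif5, which triggers GTP hydrolysis by eIF2, had 1290.3 FPKM in CR and 1001 FPKM in control (0.37).

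Eif5b, which joins the subunits, was the exception at 407 FPKM in CR and 462 FPKM in control (-0.18). Eif5a, the hypusine-bearing factor that helps the ribosome past difficult peptides, had 1963 FPKM in CR and 2362 FPKM in control (-0.27). Eif6, which keeps the ribosomal subunits apart, had 236 FPKM in CR and 328 FPKM in control (-0.47).

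Overlapping loci touched many members. Of 61 members, 29 overlap another locus of the table, 9 of them a named gene, and 88 of the 91 overlaps are with the opposite strand. In 11 members an overlapping locus had a higher FPKM than the member in both libraries. Besides the Eef1a genes these include Eef1b2, which overlaps Ndufs1 (4986 FPKM in CR and 3878 FPKM in control), and Eif2ak1, which overlaps Aimp2 (2096 FPKM in CR and 1289 FPKM in control). The part of such reads in the ratios was not tested.

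The ratios of the members were set beside the base composition of their transcripts. Among 19 members with a GC content under 45% in the longest annotated coding transcript, 14 were above 0 and 5 below, with a median log2 ratio of 0.15. Among 29 members of 50% GC and over, 10 were above 0 and 19 below, with a median of -0.19. The 13 members between had the lowest median, -0.21 (5 above 0 and 8 below), so the members' medians did not fall steadily with GC content. Spearman's rho of ratio and GC content was -0.37 over the 61 members and -0.11 over 10266 genes, as a description across genes that share libraries. Over all genes of the table the medians were 0.08 under 45% GC, -0.01 from 45 to 50% GC and -0.10 at 50% GC and over. The shares of all genes above 0 were 56.7%, 49.4% and 43.2% in these classes. Eif4e (40.5% GC), Eif2s1 (40.8%) and Eif3e (40.3%) are members of low GC content with high ratios, and Eif3b (55.9%), Eif3g (55.8%) and Eef2 (57.0%) are members of high GC content with low ratios. Eif3a (44.5% GC, -0.78), Eif4h (55.5%, 0.39) and Eef1a2 (60.6%, 0.39) go the other way. Annotated mRNA length had a rho of -0.12 over the members and -0.17 over all genes. With the median transcript length, a setting chosen after seeing the data, it was -0.01 over the members and -0.15 over all genes. The part of base composition in the ratios was not tested.

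**Figure D4:**
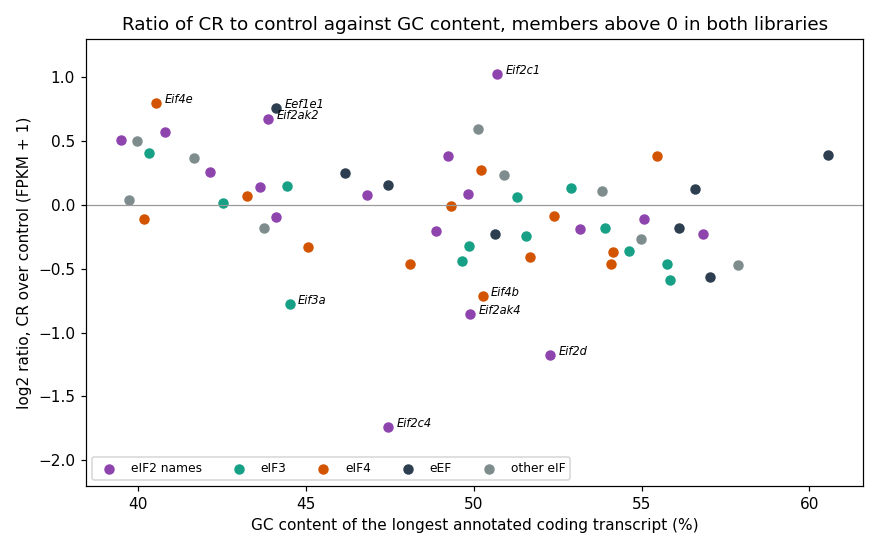
Log2 ratio of CR over control (FPKM + 1) against the GC content in percent of the longest annotated coding transcript, for the members above 0 in both libraries, coloured by group. Most points at the left, such as Eif4e and Eef1e1, lie above 0, and most points at the right lie below it, with Eef1a2 (60.6% GC, 0.39) as an exception.

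Other genes of the translation pathway were counted in the same way. Of 37 genes measured, 34 lay within 2-fold, 1 was at least 2-fold higher in CR and 2 were at least 2-fold lower. Their median log2 ratio was -0.02. For comparison, 18.7% of all genes and 8.02% of genes as abundant as the members passed 2-fold in either direction. The gene furthest apart was Mknk2, the kinase MNK2 that phosphorylates eIF4E on the eIF4G scaffold. It had 1999 FPKM in CR and 7841 FPKM in control, a log2 ratio of -1.97. Its relative Mknk1 had 197 FPKM in CR and 180 FPKM in control (0.13). Gcn1l1, the partner that activates GCN2, had 502 FPKM in CR and 1006 FPKM in control (-1.001), on the same side as Eif2ak4. It lies at the very edge of 2-fold, and these other genes were not recounted with other scalings. Of the 5 eIF2 phosphatase genes and GCN2 partners, 4 were below 0 and 1, Impact (0.33), was above.

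Mcts1, which acts with Denr in reinitiation, had 749 FPKM in CR and 332 FPKM in control (1.17), while Denr had 782 FPKM in CR and 962 FPKM in control (-0.30). Mcts1 has a retrocopy, Mcts2, so its value is uncertain. The most abundant genes of the other classes lay within 2-fold. Among them Pabpc4, a poly(A)-binding protein, had 4545 FPKM in CR and 3905 FPKM in control (0.22), and Gspt1, the release factor eRF3, had 1435 FPKM in CR and 995 FPKM in control (0.53). Ddx3x, an RNA helicase of initiation, had 590.5 FPKM in CR and 566 FPKM in control (0.06), and Dohh, which completes hypusine on eIF5A, had 344 FPKM in CR and 345 FPKM in control. Dph3, of the pathway that makes the diphthamide of eEF2, had 254 FPKM in CR and 153 FPKM in control (0.72), while Dph5 had 126 FPKM in CR and 239 FPKM in control (-0.92). Of 9 mitochondrial translation factors, 6 were above 0, beside 47.9% of all genes, and none reached 2-fold. The most abundant of these, the elongation factor Tufm, had 977 FPKM in CR and 1329 FPKM in control (-0.44).

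**Figure D5:**
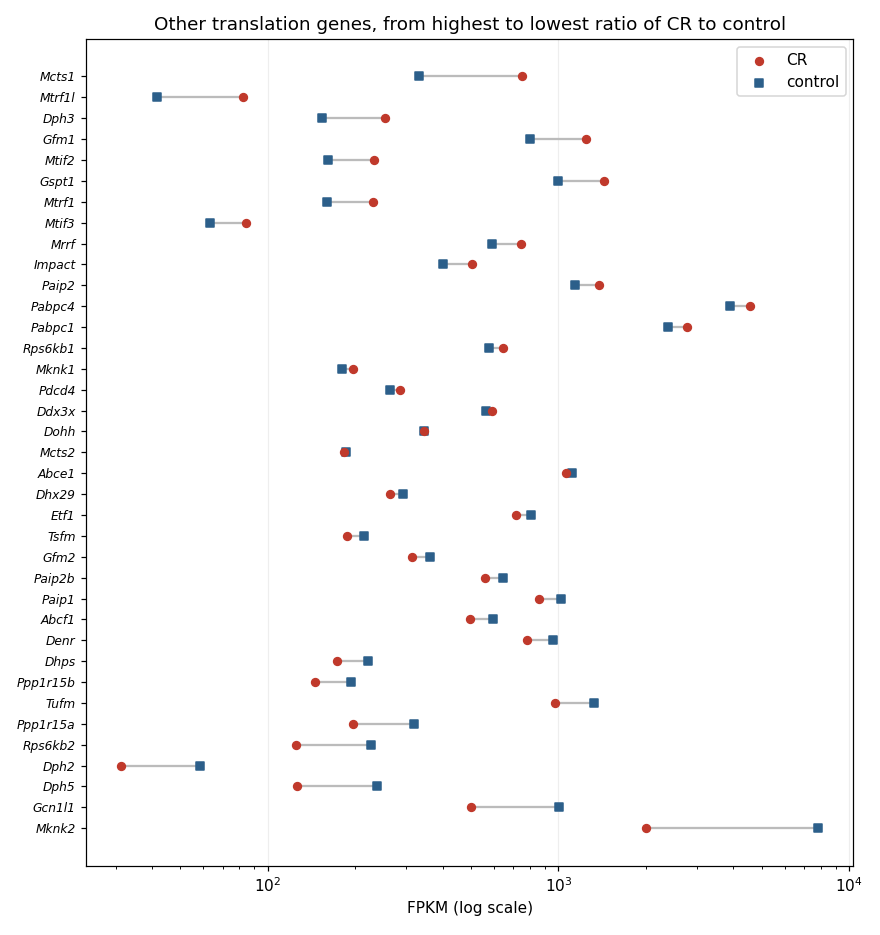
FPKM on a log axis of 37 other translation genes in the CR library (red circles) and the control library (blue squares), from the highest to the lowest ratio. Mcts1 at the top and Gcn1l1 and Mknk2 at the bottom are the genes past 2-fold, 1 library per group.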

How the data were processed

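Poly(A) RNA was made into paired-end libraries with random priming and sequenced, per the labels' protocols. Per the submitters' processing notes, TopHat 1.2.0, Cufflinks and Cuffdiff were run on build mm9. No other version, annotation or filter is named in the sources used here. Per the file headers, the authors deposited FPKM for each locus. That 1 had been added to each value was inferred from their digits, and 1 was subtracted. The columns sum to 13608849 FPKM in CR and 12758512 FPKM in control, and depth is unknown.

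Loci with a single symbol were kept and loci of a symbol summed. Log2 ratios used a pseudocount of 1 FPKM and genes averaging 1 FPKM or more. Groups follow the diet in the labels. The counting was run on simulated data with planted changes well past 2-fold. The simulated noise was far smaller than the spread of the real ratios, so it checks the arithmetic of the counting alone. GC content and length came from GENCODE vM21 by symbol, and promoters from RefSeq (GRCm38.p6). The members and lists were chosen with earlier results of these data known. Every member is given by its values or by its group's range. Of the other translation genes, those past 2-fold and the most abundant of each class are named, and further ones were chosen after their values were seen. Python 3.11.15, numpy 2.4.6, pandas 2.3.3 and matplotlib 3.10.9 were used. Alternatives were other pseudocounts, filters, scalings, locus choices and groupings.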

Additional observations from a re-analysis of the deposited data

How the results depend on the processing

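No paired analysis was possible because each group has 1 library. Group medians and counts past 2-fold were recomputed under 9 alternatives and 3 other groupings. Group medians moved by at most 0.1 on the log2 scale, other than the eIF4 median, which was -0.33 without Eif4ebp2 and Eif4enif1. The eIF2 median lay so near 0 that its sign changed with centring (0.02) and became 0.08 with a mean of at least 100 FPKM, without genes listed at 0, or with the subunits and exchange factor alone. With equal sums without the 50 most abundant genes, 0 members, Eif2 names included, were at least 2-fold higher. With a mean of at least 100 FPKM, 1 member, Eif2d, was at least 2-fold lower, and 390 genes of the whole table were at least 2-fold higher and 417 lower, as fewer genes were counted. Without genes listed at 0, 674 genes of the table were at least 2-fold lower. Of the members past 2-fold none changed direction, but the largest shift of the median gene was -0.07, too small to turn them. Members near 0 did change sign. With equal sums Eif1ax (-0.04), Eif3h (-0.01), Eif3j (-0.06) and Eif4g2 (-0.002) fell below 0, and with centring Eif4e2 (0.02) rose above it. Counts above and below 0 were not recomputed, by group or over all genes. Those of eIF3, eIF4 and the start codon factors depend on the scaling, as these sign changes show. The median of all genes was -0.03 in the main setting and -0.10 with equal sums. Unknown depth and the lack of a second library per group limit every value.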

Other observations

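Ratios between partner genes within a library, chosen after their values were seen, are given here as values. Eif4e stood at 0.40 of the FPKM of the scaffold Eif4g1 in CR and at 0.18 in control. The repressor Eif4ebp2 stood at 2.03 times the FPKM of Eif4e in CR and at 3.78 times in control. Within eIF3, Eif3m stood at 1.76 times Eif3a in CR and at 0.93 times in control. Eef2 stood at 27.9 times its kinase Eef2k in CR and at 35.3 times in control. Among the neighbouring Argonaute genes, Eif2c1 stood at 11.5 times Eif2c4 in CR and at 1.67 times in control. Each value rests on 1 library.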
